A study of Mus musculus with 9 samples.

Results

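The sodium pump family examined here comprised 7 genes, Atp1b1, Atp1b2, Atp1b3, Fxyd1, Fxyd5, Fxyd6 and Fxyd7, out of 30854 names on the array. Probes were chosen by name (ATP1B1, ATP1B2, ATP1B3, FXYD1, FXYD5, FXYD6 or FXYD7), which gave 10 of 45281 probes. The family was taken because Atp1b2 had shown a high signal in ventral brainstem in these same arrays, so comparisons with the ventral region are given for the family as a description, with no p and with counts past the threshold shown only beside the share of all probes. Target against dorsal is the comparison read as a test. Fxyd1 had 2 probes, Fxyd5 had 3 and each of the other genes had 1. Of the 10 probes 8 were tested, because 3 or more of the 9 arrays read them above background (detection p under 0.05).

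Total RNA came from 3 brainstem regions, here called target, dorsal and ventral after the labels. Each region had 3 arrays. The animals were male Chat-Cre:Ai9 mice aged 8 weeks. All groups thus shared a Cre recombinase driven by the acetylcholine-synthesizing enzyme gene Chat and Ai9, a reporter that makes a red fluorescent protein after Cre has acted. Column names of a deposited table assign the dorsal, ventral and target arrays of each number to the same mouse, 3 mice in all. The labels mention no sorting by the reporter and no treatment, and neither the dissection nor the definition of the target region is described in them.

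The sodium pump is a membrane enzyme that exports sodium and imports potassium at the cost of ATP, and so sustains the ion gradients behind neuronal firing, transmitter uptake and potassium clearance. Its alpha subunit carries out the transport. A beta subunit, encoded by one of the Atp1b genes, is needed for the pump to fold and reach the cell surface. FXYD proteins are small single-span membrane proteins, named for a short conserved motif, that bind the assembled pump and tune its affinity for ions. In brain, the protein of Atp1b2 is also known as AMOG, the adhesion molecule on glia.

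Between 16703 and 19945 probes were above background per array, and 20461 were tested. Over these, any 2 arrays correlated at 0.892 to 0.961, arrays of 1 region at a median of 0.944 and arrays of different regions at 0.923. Brain identity was borne out by 5 neuronal, 7 astrocyte and 5 oligodendrocyte markers, each with a tested probe, while Chat was above background on at most 2 of 9 arrays. Of the 8 brainstem markers 6 had a tested probe, all but Chat and Hoxa3. All levels are log2 normalized intensities of 1 probe, so they compare arrays but not probes or genes with each other. The number of arrays limits the precision.

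Atp1b2 and Fxyd6 were lowest in dorsal, intermediate in target and highest in ventral, and for both genes the 3 regions did not overlap. The other 6 tested probes showed no such order. Atp1b1 and Atp1b3, which encode the other 2 beta subunits on the list, read nearly the same level in every region. Fxyd1, Fxyd5 and Fxyd7 gave dim signals, and the regions overlapped for each of their tested probes but 1 of Fxyd5, which was highest in target.

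Among the beta subunits, Atp1b2 (probe 5670328) read 8.14, 8.34 and 8.64 on dorsal arrays 1 to 3, 9.80, 8.95 and 9.43 on target arrays and 11.84, 11.40 and 11.90 on ventral arrays. Every ventral array thus lay above every target array, and every target array above every dorsal one. The means were 8.38 ± 0.25 (SD, n = 3) in dorsal, 9.40 ± 0.43 in target and 11.71 ± 0.28 in ventral. The ventral level was 10.1-fold the dorsal level (log2 difference of dorsal minus ventral -3.34, SE 0.26) and 4.98-fold the target level (target minus ventral -2.32, SE 0.26). These are the values for which the family was taken. The excess of ventral over dorsal was present in each mouse, at 3.69, 3.05 and 3.26 in mice 1, 2 and 3, and so was that of ventral over target, at 2.03, 2.44 and 2.47.

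Ventral was also the brightest region before any correction, though the size of the difference depended on it. Without background correction dorsal minus ventral was -2.86. The unnormalized intensities of Atp1b2 were 433.5, 447.6 and 634.4 in dorsal, 895.3, 622.1 and 759.4 in target, and 3889.5, 3076.5 and 3464 in ventral. Between 23 and 54 beads stood behind each of these values, and the standard error over beads was 1.90% to 6.63% of the intensity. The bead error covers the reading of 1 array and not the spread between animals.

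Fxyd6, which encodes a FXYD regulator found in brain, followed the same order as Atp1b2. Its probe (6550309) read 8.96, 9.44 and 9.69 on dorsal arrays 1 to 3, 10.42, 10.29 and 10.59 on target arrays and 11.85, 11.78 and 11.82 on ventral arrays. The ventral arrays were almost identical to one another, while the dorsal arrays spread most. The means were 9.36 ± 0.37 (SD, n = 3), 10.43 ± 0.15 and 11.82 ± 0.03 in the same order of regions. The ventral level was 5.47-fold the dorsal level (dorsal minus ventral -2.45, SE 0.21) and 2.61-fold the target level (target minus ventral -1.38, SE 0.21). Ventral exceeded dorsal by 2.88, 2.34 and 2.14 in mice 1, 2 and 3, and the unnormalized intensities ran from 667.6 in dorsal array 1 to 3925.2 in ventral array 1.

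**Figure D1:**
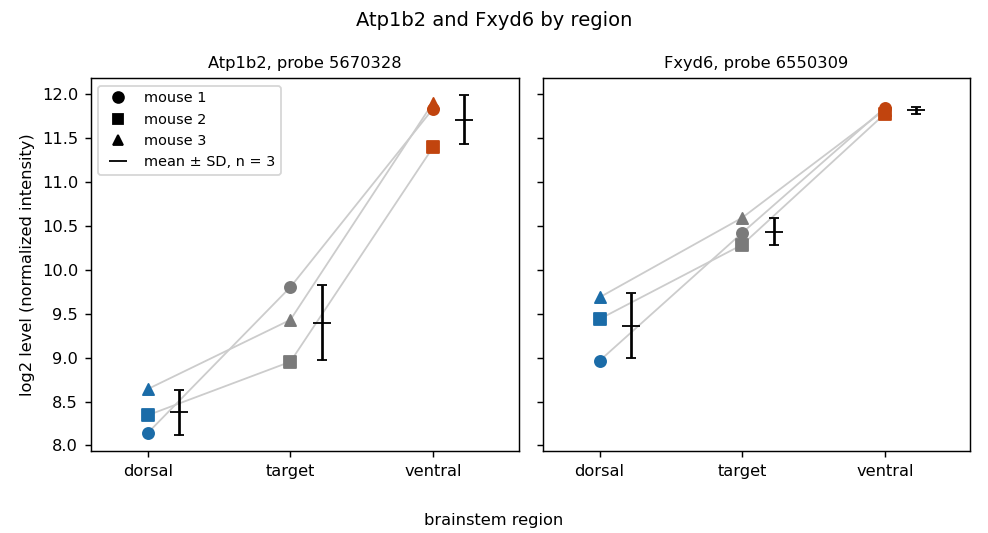
Log2 normalized intensity (vertical axis) of the Atp1b2 and Fxyd6 probes on each array by brainstem region, with symbols for the 3 mice, grey lines joining arrays of 1 mouse, and bars giving the mean ± SD (n = 3). Ventral arrays lie at 11.40 to 11.90 for Atp1b2 and 11.78 to 11.85 for Fxyd6, above all target arrays, which lie above all dorsal arrays.

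Read against the whole array, 2 of the 8 tested family probes, those of Atp1b2 and Fxyd6, were past the threshold in ventral over dorsal, a direction in which 3.92% of all 20461 tested probes passed (limma, adjusted p below 0.05). In the opposite direction 0 of the 8 and 4.06% of all passed. The same 2 were past this threshold in ventral over target, where 0.616% of all probes did and 1.78% passed in either direction, and 0 of the 8 passed in target over ventral, where 1.17% of all did. Without ventral array 1, or without any 1 of the 3 target arrays, Fxyd6 no longer passed against target and the count was 1. The full order of dorsal below target below ventral with no overlap was shown by 2 of the 8 probes and by 1.88% of all tested probes, and ventral arrays above all 6 others by the same 2 probes and by 6.46% of all. Since the family was chosen on this contrast, nothing is read from these counts. A larger difference between dorsal and ventral than that of Atp1b2 was found for 17 tested probes, and than that of Fxyd6 for 74. The median difference of dorsal minus ventral was -0.01 over the 8 family probes and 0.04 over all tested probes.

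**Figure D2:**
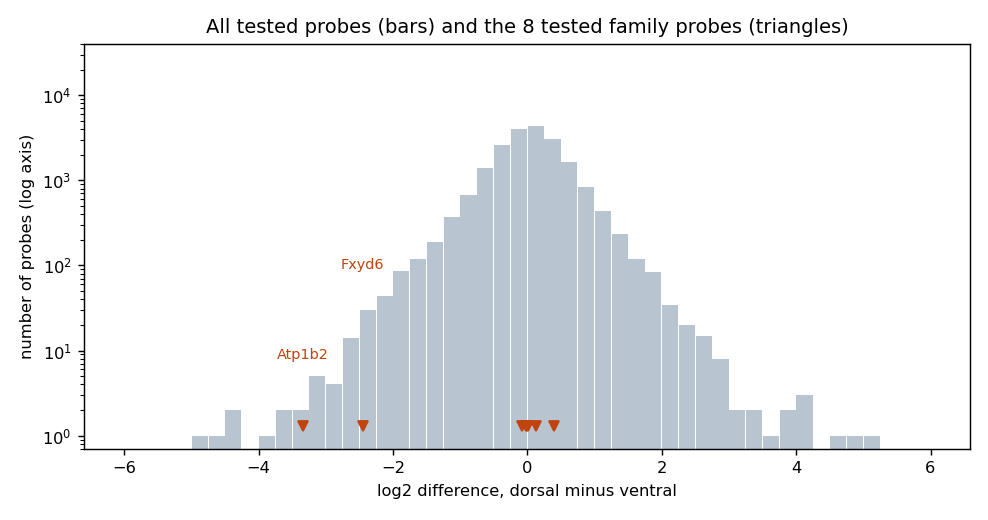
Number of tested probes (bars, log axis) by log2 difference of dorsal minus ventral, with triangles at the 8 tested probes of the family. Atp1b2 (-3.34) and Fxyd6 (-2.45) lie in the sparse left tail and the other 6 triangles lie between -0.08 and 0.40.

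The target region lay part of the way between its neighbours for both genes. Its mean stood at 30.6% of the distance from dorsal to ventral for Atp1b2 and at 43.7% for Fxyd6, where the median over the 1632 probes that differed between dorsal and ventral was 37.1%. Of those 1632 probes, 1488 had a target mean between the other two. An intermediate target level was therefore common among probes that differed between dorsal and ventral.

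Target against dorsal, the comparison that did not enter the choice of the family, gave no call. Of the 8 tested probes 0 passed in either direction (limma with Benjamini-Hochberg adjustment over all tested probes), where 0.0586% of all probes passed (0.044% higher in target and 0.0147% higher in dorsal), and 3 of the 8 had an unadjusted p below 0.05, against 1965 of the 20461 tested probes. All target arrays lay above all dorsal arrays for 3 of the 8 probes, those of Atp1b2, Fxyd6 and 1 of Fxyd5, and for 8.26% of all tested probes. Fxyd6 was 1.07 higher in target (SE 0.21, 95% interval 0.60 to 1.54, adjusted p = 0.119). Atp1b2 was 1.02 higher (SE 0.26, 95% interval 0.436 to 1.604, adjusted p = 0.243). Target was the higher region in each of the 3 mice for both genes, by 1.46, 0.85 and 0.91 for Fxyd6 and by 1.66, 0.61 and 0.79 for Atp1b2. For Fxyd6 the outcome rested on the background correction, since without it the difference was 0.92 and passed with an adjusted p = 0.0201, where 0.435% of all probes passed (range of its adjusted p across alternatives 0.0201 to 0.395). In the authors' own quantile-normalized values it was also 0.92 (adjusted p = 0.0207), where 0.43% of all probes passed.

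The other beta subunits gave flat profiles. Atp1b1, whose product is the most widespread beta subunit, read 12.67, 12.67 and 12.52 on dorsal arrays, 12.64, 12.64 and 12.61 on target arrays and 12.74, 12.58 and 12.78 on ventral arrays. Its whole range over 9 arrays, 12.52 to 12.78, was narrower than the spread of Atp1b2 over the 3 dorsal arrays alone. The means differed by 0.0070 between target and dorsal (SE 0.15, 95% interval -0.34 to 0.35, adjusted p = 0.994), and dorsal minus ventral was -0.076 (SE 0.15).

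Atp1b3, which encodes a beta subunit found in many tissues, read 12.10, 12.12 and 12.14 on dorsal arrays, 11.98, 12.07 and 11.99 on target arrays and 12.19, 12.25 and 11.98 on ventral arrays. The target arrays all lay below the dorsal arrays, by a mean of 0.11 (target minus dorsal -0.11, SE 0.16, 95% interval -0.46 to 0.25, adjusted p = 0.866), and the ventral arrays overlapped both. Dorsal minus ventral was -0.020 (SE 0.16). For both genes the intervals leave room for differences between target and dorsal of at most 0.46 on the log2 scale in either direction.

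**Figure D3:**
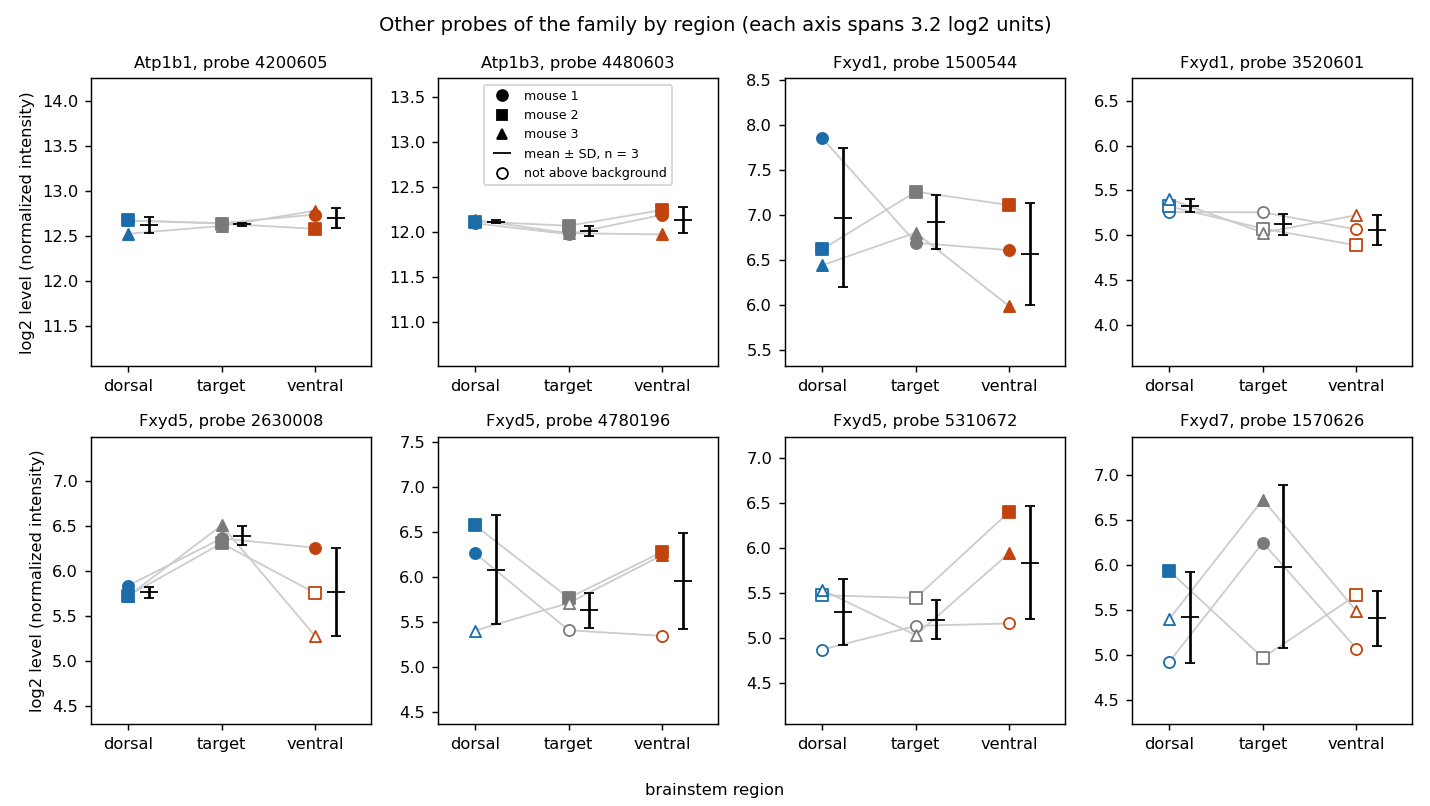
Log2 normalized intensity (vertical axis, 3.2 log2 units in each panel) of the other 8 probes of the family on each array by region, with symbols for the 3 mice, grey lines joining arrays of 1 mouse, bars for the mean ± SD (n = 3) and open symbols for arrays not above background. Atp1b1 and Atp1b3 are level across regions, and the Fxyd1, Fxyd5 and Fxyd7 probes vary between arrays of 1 region.

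Among the remaining FXYD regulators, Fxyd1 encodes phospholemman, a target of protein kinases that is best known from heart and is also made in choroid plexus and other brain cells. Its brighter probe (1500544) was above background on all 9 arrays and read 7.85, 6.62 and 6.44 in dorsal, 6.69, 7.26 and 6.80 in target, and 6.61, 7.11 and 5.98 in ventral. The regions overlapped, and dorsal array 1 stood above every other array. Target minus dorsal was -0.054 (SE 0.41, 95% interval -0.97 to 0.86, adjusted p = 0.980), and without dorsal array 1 it was 0.39 (adjusted p = 0.855). The second Fxyd1 probe (3520601) was above background on 0 of 9 arrays and was not tested.

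Fxyd5 encodes dysadherin, a FXYD protein that also lowers cell adhesion. Its 3 probes lay near background and did not share a pattern. Probe 2630008 was above background on 7 arrays and read 5.84, 5.73 and 5.72 in dorsal, 6.36, 6.31 and 6.51 in target, and 6.26, 5.76 and 5.28 in ventral. Each target array was above every other array, and target exceeded dorsal by 0.63 (SE 0.24, 95% interval 0.09 to 1.17, adjusted p = 0.448). Probe 4780196, above background on 5 arrays, pointed the other way, with target minus dorsal at -0.45 (SE 0.35, adjusted p = 0.717) and overlapping regions. Probe 5310672 was above background on 2 arrays, both ventral, and was not tested.

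Fxyd7 encodes a FXYD protein known from neurons and astrocytes of the brain. Its probe (1570626) was above background on 1 of 3 dorsal, 2 of 3 target and 0 of 3 ventral arrays. It read 4.92, 5.93 and 5.40 in dorsal, 6.25, 4.97 and 6.73 in target, and 5.07, 5.67 and 5.49 in ventral. The 2 high target arrays were those of mice 1 and 3, and the target array of mouse 2 was among the lowest of the 9. Target minus dorsal was 0.56 (SE 0.44, adjusted p = 0.719), and it was 0.19 without target array 3 and 1.07 without target array 2. No fold against ventral is given, since no ventral array was above background and target array 2 read below all 3 of them.

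**Figure D4:**
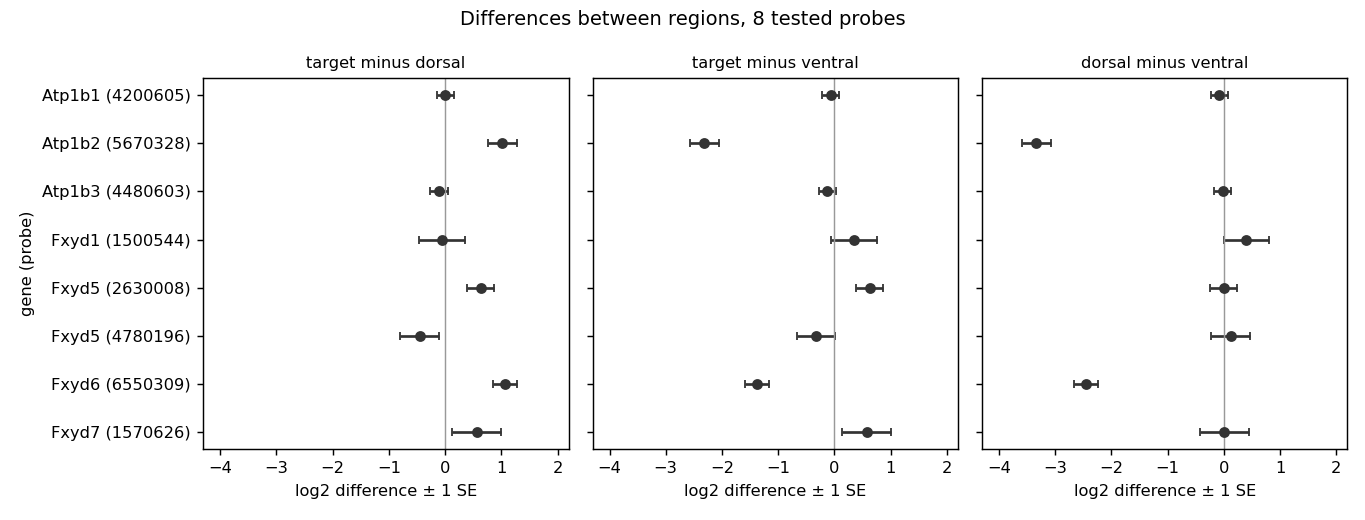
Log2 differences between regions for the 8 tested probes of the family, with bars of 1 SE from the limma fit of all 9 arrays. Atp1b2 and Fxyd6 stand apart to the left in target minus ventral (-2.32 and -1.38) and dorsal minus ventral (-3.34 and -2.45), and lie at 1.02 and 1.07 in target minus dorsal.

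In the RefSeq gene order of mouse assembly GRCm38.p6, Fxyd5, Fxyd7 and Fxyd1 are consecutive protein-coding genes on chromosome 7, and Fxyd6 lies next to Fxyd2 on chromosome 9, the chromosome that also carries Atp1b3. The 3 neighbours on chromosome 7 all gave dim signals here. The neighbour of Fxyd6, Fxyd2, was above background on at most 2 of 9 arrays by any of its probes. Atp1b2 on chromosome 11 and Atp1b1 on chromosome 1 each lie apart from the rest of the family.

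RefSeq promoter windows of 250 bases before to 50 bases after a gene start were at hand for 5 of the 7 genes, in 6 windows of GRCm38.p6. None was at hand for Atp1b2 or Fxyd7. The window of Fxyd6 is printed as the member that moved together with Atp1b2, beside those of Atp1b1 and Atp1b3 as the members with level signals, each 5′ to 3′ on the gene's strand. Capitals mark exact matches on either strand to the TATA box with letters TATAAA, the CCAAT box as spelled, the GC box with letters GGGCGG or the E-box with letters CAGCTG, motifs picked after the windows had been seen. The E-box was searched in this spelling only, so other forms of it were not marked or counted. No matches of different motifs overlapped.
Fxyd6, chr9:45369935-45370234, + strand: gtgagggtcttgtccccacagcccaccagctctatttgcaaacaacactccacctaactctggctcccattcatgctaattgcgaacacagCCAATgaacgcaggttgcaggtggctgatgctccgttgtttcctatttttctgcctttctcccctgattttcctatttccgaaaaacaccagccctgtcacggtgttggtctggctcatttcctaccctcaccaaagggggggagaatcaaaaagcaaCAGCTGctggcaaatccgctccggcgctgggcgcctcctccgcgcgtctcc
Atp1b1, chr1:164458306-164458605, - strand: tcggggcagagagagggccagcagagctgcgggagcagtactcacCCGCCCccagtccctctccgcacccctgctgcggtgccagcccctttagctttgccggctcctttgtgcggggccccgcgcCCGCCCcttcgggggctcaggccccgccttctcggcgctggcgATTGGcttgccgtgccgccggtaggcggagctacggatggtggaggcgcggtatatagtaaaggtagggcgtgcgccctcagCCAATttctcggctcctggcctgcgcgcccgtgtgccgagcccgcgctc
Atp1b3, chr9:96364382-96364681, - strand: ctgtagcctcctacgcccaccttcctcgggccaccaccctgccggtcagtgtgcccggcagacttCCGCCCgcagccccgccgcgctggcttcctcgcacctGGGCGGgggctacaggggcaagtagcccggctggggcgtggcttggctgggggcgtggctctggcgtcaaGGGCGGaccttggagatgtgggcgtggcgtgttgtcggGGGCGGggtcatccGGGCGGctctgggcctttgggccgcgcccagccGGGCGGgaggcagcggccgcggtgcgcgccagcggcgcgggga
The Fxyd6 window held 1 CCAAT box, 1 E-box and no GC box, at 54.3% G and C with 12 CpG sites. The Atp1b1 window held 2 GC boxes and 2 CCAAT boxes at 71.0% G and C with 31 CpG sites, and the printed Atp1b3 window held 6 GC boxes at 76.0% with 34 CpG sites. A second Atp1b3 window, chr9:96363666-96363965, held none of the 4 motifs, at 74.7% with 39 CpG sites. The 2 level members thus had windows richer in G, C and CpG than Fxyd6, where the median of all 32851 windows was 52.7% and 7 sites. The windows of the dim members Fxyd1 (58.7%) and Fxyd5 (57.3%) held 6 CpG sites each, fewer than that of Fxyd6. A link between these windows and the levels was not tested. Of all windows 37.4% held a CCAAT box, 35.7% a GC box, 16.3% the E-box and 13.6% a TATA box. A match describes letters in the window and not a bound factor.

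By Pearson correlation with Atp1b2 over the 9 arrays, given as a description of profiles that share the same 9 libraries, the 5 most alike of 10039 named genes were Cox10, a heme A synthesis gene (r = 0.989), the histidine methyltransferase gene Setd3 (0.982), the integrin beta gene Itgb1 (0.982), Dnttip1 (0.982) and the mRNA decapping gene Dcps (0.981). Each gene was represented by its tested probe with the highest r. Fxyd6 ranked 10 of the 10039 (r = 0.975). Atp1b1 (0.471), Atp1b3 (0.138), Fxyd7 (-0.03), Fxyd5 by its probe 4780196 (-0.11) and Fxyd1 (-0.48) were far from it. A correlation of 0.9 or more was reached by the best probe of 296 genes, 2.95% of those compared, so that a profile like that of Atp1b2 was not rare.

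Markers of cell types also differed between regions, and their part in the Atp1b2 and Fxyd6 differences was not tested. In bulk tissue, fewer cells of a type and less RNA per cell cannot be told apart. Of 5 measured neuronal markers 2 were higher in ventral than in dorsal, Stmn2 (dorsal minus ventral -1.17, adjusted p = 0.0164) and Eno2 (-0.74, adjusted p = 0.0339). In this direction 3.92% of all tested probes passed, and 4.06% in the opposite one. The other 3 did not pass, Syt1 at -0.48 (adjusted p = 0.209), Tubb3 at -0.22 (adjusted p = 0.618) and, with the opposite sign, Snap25 at 0.14 (adjusted p = 0.641). The summed linear signal of the 5 neuronal markers ran from 6965 to 8081 in dorsal, 8660 to 9422 in target and 10056 to 11021 in ventral, the order of Atp1b2 and Fxyd6 with no overlap. Such a sum is weighted toward its brightest probes, here Eno2, and is not a result separate from the single markers. Among single tested probes, 1.88% showed this full order without overlap. Single markers did not all follow this order, since the Tubb3 mean was lowest in target (7.77, against 8.10 in dorsal and 8.32 in ventral). Of 5 oligodendrocyte markers 2 were higher in ventral than in dorsal, Mobp (-1.14, adjusted p = 0.00707) and Mbp (-0.93, adjusted p = 0.00707). The other 3 did not pass, Cnp at -0.79 (adjusted p = 0.123) and, with the opposite sign, Mog at 0.73 (adjusted p = 0.0813) and Mag at 0.24 (adjusted p = 0.635). The sum of the 5 ran from 13545 to 16292 in dorsal, 17808 to 18707 in target and 20245 to 24575 in ventral, also without overlap. In ventral it was weighted toward Mobp and Mbp (means 12.88 and 12.85), the 2 that passed. The means of Mog and Mag were highest in dorsal. Of 7 astrocyte markers 0 passed by the brightest probe of each, with 2 at an unadjusted p below 0.05 and of opposite sign, Aldh1l1 (0.56, adjusted p = 0.0831) and Slc1a2 (-0.50, adjusted p = 0.128). Their sum of 12586 to 12959 in dorsal overlapped that of 12260.1 to 13543 in ventral, and that of 10939.6 to 12189.9 in target lay below both. A dimmer Slc1a2 probe, 3940064, chosen after its values were seen, was higher in ventral than in dorsal (-1.22, adjusted p = 0.00367). It was also higher in ventral than in target (target minus ventral -0.89, adjusted p = 0.0412), where 0.616% of all probes passed. The dimmest tested Slc1a2 probe, 940725, had the opposite sign, at 0.72 in dorsal minus ventral (adjusted p = 0.457) and 0.08 in target minus ventral.

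The other lists held 2 to 6 tested markers. No endothelial, microglial, ependymal and choroid plexus, or meningeal and mural marker passed between dorsal and ventral in limma, where 3 of the 15 tested genes of these lists had an unadjusted p below 0.05. So had 4548 of all 20461 tested probes. Markers above background on 0 arrays were Itgam and C1qa of microglia, Otx2 and Folr1 of choroid plexus and Pdgfrb of mural cells. Of the 2 measured blood genes, Hbb-b1 had the higher level in dorsal, by 0.82 over ventral (adjusted p = 0.0135). Hba-a1 did not pass (0.58, adjusted p = 0.124), and its mean was highest in target, at 8.10 against 7.98 in dorsal and 7.40 in ventral. The sum of both genes fell in the order opposite to Atp1b2, at 2736 to 3207 in dorsal, 2448 to 2670 in target and 1623 to 1778 in ventral, with no overlap. That sum was weighted toward Hbb-b1, the brighter gene (dorsal mean 11.41). The microglial sum was 1483 to 2189 in dorsal and 883 to 1447 in ventral, without overlap, while that of 1387 to 1705 in target overlapped both. Among its genes, dorsal minus ventral was 0.79 for Aif1, 0.13 for P2ry12 and, with the opposite sign, -0.08 for Csf1r. The endothelial sum was 840.03 to 1059 in dorsal and 1052 to 1848 in ventral. Of the 6 tested brainstem markers, the noradrenaline transporter gene Slc6a2 was 5.45-fold higher in target than in ventral (log2 difference 2.45, SE 0.25, adjusted p = 0.00227) and 0.97 higher on the log2 scale in dorsal than in ventral (adjusted p = 0.0432), an order of regions unlike that of Atp1b2.

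Other genes of the sodium pump pathway were read from lists chosen with earlier results of these arrays known. Of 36 such genes 33 were on the array under these names and 24 had a tested probe. Between target and dorsal, and between target and ventral, 0 of the 24 passed, and 0 and 3 of them had an unadjusted p below 0.05. Of all 20461 tested probes, 0.0586% and 1.78% passed in these pairs, and 1965 and 3271 had an unadjusted p below 0.05. Between dorsal and ventral 2 were higher in dorsal and 1 was higher in ventral, at median differences of 0.043 over the 24 and 0.039 over all tested probes, and 7.98% of all tested probes passed in this pair.

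Of the 8 further pump and FXYD genes listed, Atp12a, a gene for a related proton and potassium pump, was the 1 with a tested probe, and it gave 0.048 in dorsal minus ventral (SE 0.32, adjusted p = 0.951), 0.065 in target minus ventral and 0.017 in target minus dorsal.

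Partners of the pump gave 0 calls among 5 tested genes in each pair. The largest differences among them were 0.80 for Agrn, which encodes agrin, a proteoglycan of the extracellular matrix (target minus ventral, SE 0.43, adjusted p = 0.411), and -0.32 for Nkain4, which encodes a protein that interacts with the pump (target minus dorsal, SE 0.35, adjusted p = 0.809). Dorsal minus ventral was 0.43 for Agrn (adjusted p = 0.608) and 0.32 for Nkain4 (adjusted p = 0.650), and target minus ventral of the ankyrin gene Ank2 was -0.20 (adjusted p = 0.617). Calcium pumps gave 0 calls among 6 tested genes. Their largest differences were 0.52 for Atp2a2, the calcium pump of the endoplasmic reticulum (dorsal minus ventral, SE 0.15, adjusted p = 0.0751), and -0.58 for Atp2b1, a calcium pump of the plasma membrane (target minus ventral, SE 0.33, adjusted p = 0.438). Target minus ventral of Atp2b4 was 0.43 (adjusted p = 0.440) and target minus dorsal of Atp2a3 was -0.26 (adjusted p = 0.793). The dimmer Atp2b4 probe 4390382, chosen after its values were seen, was 1.62 higher in dorsal than in ventral (adjusted p = 0.0120).

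Genes whose products use or restore the sodium and potassium gradients held the 3 calls between dorsal and ventral. Kcnj10 and Kcnj16, which encode potassium channel subunits that form heteromers in glia, were higher in dorsal by 0.85 (SE 0.17, means 10.11 and 9.26, adjusted p = 0.0168) and 0.66 (SE 0.15, means 9.36 and 8.70, adjusted p = 0.0299). They ran opposite to Atp1b2 over the 9 arrays, with r = -0.91 for Kcnj10 and -0.99 for Kcnj16. The latter was the lowest of the 10039 genes, each represented by its tested probe with the highest r. Slc12a2, the sodium, potassium and chloride importer gene, was higher in ventral (dorsal minus ventral -0.81, SE 0.18, means 12.14 and 12.95, adjusted p = 0.0292), while its dimmer probe 4070025 gave 0.02. By its brighter probe Slc12a2 ran in the same direction as Atp1b2 over the 9 arrays (r = 0.87). Target minus ventral was 0.70 for Kcnj10 (adjusted p = 0.0795) and -0.66 for Slc12a2 (adjusted p = 0.114), and target minus dorsal reached only -0.23 for Slc12a5 and Kcnj16 (adjusted p = 0.687 and 0.679). Under a replicate block for mouse the adjusted p was 0.0407 for Kcnj10, 0.0384 for Slc12a2 and 0.0558 for Kcnj16, whose call was thus lost. Kcnj10 passed in 13, Slc12a2 in 9 and Kcnj16 in 8 of 16 alternative settings. The glutamate transporter gene Slc1a2 did not pass by its brightest probe (-0.50, SE 0.17, adjusted p = 0.128), whereas its probe 3940064, chosen after its values were seen, was higher in ventral than in dorsal (-1.22, SE 0.17, adjusted p = 0.00367). Target minus ventral of this probe was -0.89 (adjusted p = 0.0412), and its profile ran with that of Atp1b2 (r = 0.97).

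**Figure D5:**
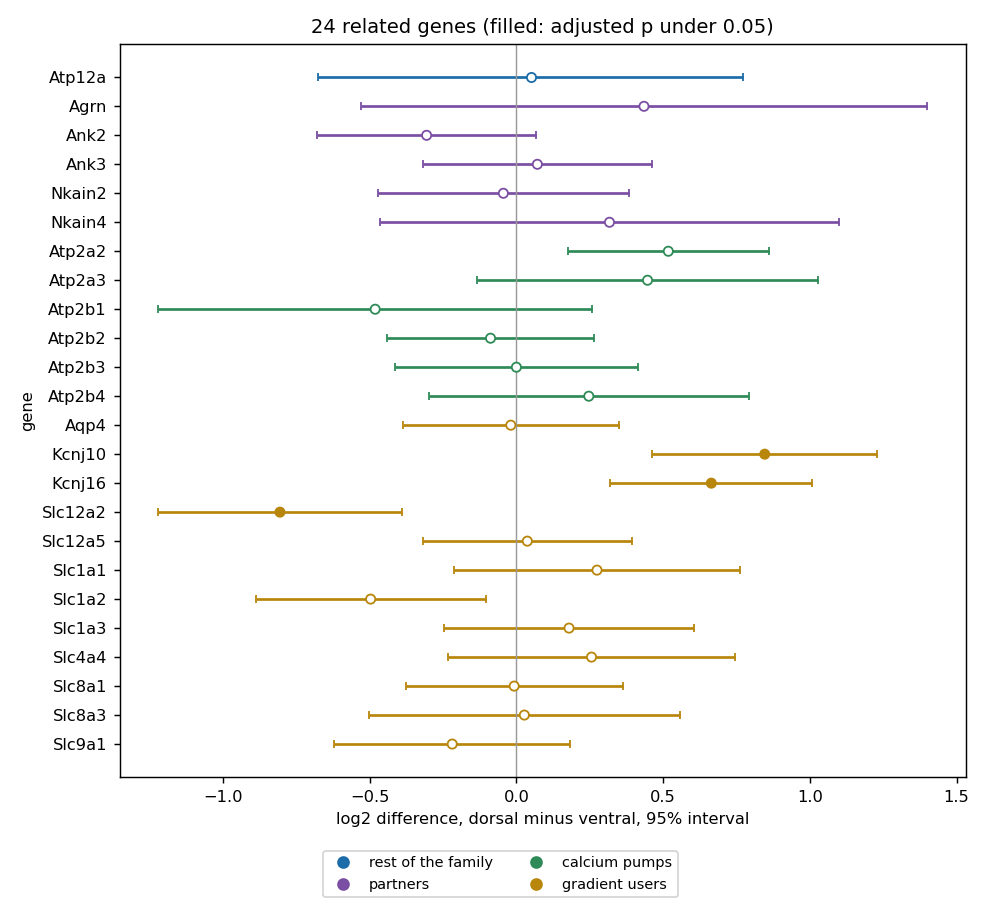
Log2 difference of dorsal minus ventral (horizontal axis, with 95% interval from the limma fit) for the 24 related genes with a tested probe, coloured by list and filled where the adjusted p was below 0.05. Kcnj10 (0.85) and Kcnj16 (0.66) lie to the right and Slc12a2 (-0.81) to the left of 0.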

How the data were processed

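Total RNA was labelled and hybridised to Illumina mouse whole-genome arrays. Per the file headers, the authors exported linear bead intensities with GenomeStudio 1.6.0, once unnormalized and once quantile-normalized. The same deposited export gives a detection score, a fraction near 1 where a probe is bright, and the detection p is 1 minus this value. It also gives the bead number and bead SD, other measures of each deposited intensity.

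The deposited unnormalized intensities were put through neqc of limma 3.58.1 (R 4.3.3), that is, normexp background correction, an offset of 16, quantile normalization and log2. All 9 arrays entered 1 lmFit and eBayes fit with region as the only term, adjusted by Benjamini-Hochberg over 20461 tested probes at 0.05. The script was tested on simulated data with changes added to the dorsal arrays and read in dorsal minus ventral. Those changes were larger than the target minus dorsal differences of Atp1b2 and Fxyd6, so the power for differences of that size was not tested. Mouse numbers come from a deposited column header. Deviations of arrays of the same mouse correlated between -0.10 and 0.15 (9 pairs), and those of different mice between -0.16 and 0.22 (18 pairs). A related gene was represented by its brightest tested probe on average, and up to 4 called genes per list and pair, or else the 2 with the largest difference, were named. In the correlations with Atp1b2 each gene was represented instead by its tested probe with the highest r. The members, lists and rules were chosen with earlier results of these data known. Alternatives were no background correction, an offset of 50, the authors' quantile table, median centring, no filter, detection on all 9 arrays, the mouse as a block and each array left out. No slide was named in the files, so slides were not used. Promoter windows are from RefSeq. Some genes of the lists are not reported here and were left out of their counts and sums.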

Additional observations from a re-analysis of the deposited data

How the results depend on the processing

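Nothing is read from the counts of family probes against ventral, the region on which the family was chosen. Between target and ventral that count of 2 went to 1 to 2 when 1 array was left out, and was 2 under the other 7 alternatives. Between target and dorsal the count of 0 became 1 without background correction and 1 in the authors' quantile-normalized table, Fxyd6 in both, and stayed 0 under the other 14. The replicate block, with the mouse as a term, gave Fxyd6 an adjusted p of 0.194 and Atp1b2 0.272 between target and dorsal, and changed no call of the family. For the 24 related genes, target against ventral gave 2 calls without background correction and 2 in the authors' table, 1 with an offset of 50 and 1 among probes detected on all 9 arrays, against 0. Dorsal against ventral gave 5 without background correction and 5 in the authors' table, and 0 to 3 with 1 array left out, against 3. Median centring shifted all tested probes by a median of -0.35 in target minus dorsal and 0.36 in dorsal minus ventral. Under it Atp1b1 changed sign in target minus dorsal (-0.39, or -0.044 relative to that shift). Leaving out 1 array moved that difference between -0.042 and 0.032 for Atp1b1, between -0.32 and 0.39 for Fxyd1, between 0.19 and 1.07 for Fxyd7 and between -0.79 and -0.21 for Fxyd5 probe 4780196. The cause of these changes was not tested. Sizes shrank without background correction, to -2.86 for Atp1b2 and -2.21 for Fxyd6 in dorsal minus ventral. Probes near background, those of Fxyd5 and Fxyd7, limit what can be read for these genes.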
